A study of Saccharomyces cerevisiae YPS1009 with 8 samples.

Results

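Budding yeast that has used up the glucose of rich medium stops fermenting, respires the ethanol it has made and then enters a resting state. Genes for respiration, fatty acid oxidation and stress protection are induced on the way, while the genes for ribosomal proteins are shut down. The strain difference in that response was measured here from ribosome footprints, which are the stretches of mRNA that ribosomes protect from nuclease and whose number per gene follows both the amount of the mRNA and how often it is translated. For each gene the change between log phase and day 4 of culture was taken in an aneuploid yeast with an extra chromosome XII (Chr12) and in its euploid relative, and the second was subtracted from the first on the log2 scale. A positive value therefore means that the gene moved further up, or less far down, in Chr12. All 8 libraries of the series entered, and 5794 of the 6537 genes listed in the tables had enough reads to be tested.

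Both strains were haploid MATa derivatives of the wild oak isolate YPS1009 that lacked HO, the endonuclease for mating-type switching (ho-Δ1). Chr12 (strain AGY1612) carried a duplication of chromosome XII with His3MX6 and NatMX markers between BER1 and INA1, and a his3-Δ allele. The euploid (AGY1611) carried NatMX at the same place. Cultures in YPD at 30 °C were started at an OD600 of 0.05 and were harvested by filtration after 3 generations (log phase) or 4 days after the start (day 4), with 2 biological replicates in each of the 4 groups. Each strain is a single construct, so a property of the construct and the extra chromosome cannot be told apart. In bulk cultures, a shift in the share of cells in a given state and a shift within each cell cannot be told apart either.

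Read totals were 396306 and 2224955 in Chr12 at day 4 and 2354539 and 1981814 in Chr12 log phase, against 211302 and 6215498 in the euploid at day 4 and 2118784 and 1455211 in euploid log phase (replicates 1 and 2). Replicate 1 was thus the shallower one at day 4 in both strains, and the euploid day 4 library of replicate 1 was the smallest of all. The extra chromosome was visible in every pair of libraries: over 499 genes of chromosome XII the median level in Chr12 exceeded that in the euploid by 0.51 and 0.79 at day 4 and by 0.68 and 0.66 in log phase (log2 CPM, where CPM are a gene's reads per 1000000 tested reads of the library, divided by its TMM factor, which is set so that the bulk of genes lie level between libraries), while genes of other chromosomes had medians between -0.08 and -0.03. The 6 a-specific genes of the MATa type summed to between 117.5 and 607.2 CPM in the Chr12 libraries and between 88.6 and 902.0 CPM in the euploid libraries. The 3 alpha-specific genes in the tables summed to between 4.26 and 26.3 CPM in the Chr12 libraries and between 8.27 and 37.6 CPM in the euploid libraries. HIS3, the histidine synthesis gene, had 23 and 76 reads in Chr12 at day 4 and 87 and 75 in Chr12 log phase, against 7 and 116 in the euploid at day 4 and 75 and 36 in euploid log phase. Its reads in Chr12 lay in the first, middle and last part of the coding sequence, although the strain is given as his3-Δ. The extent of that deletion is not given in the sources used here.

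No single gene passed an FDR of 0.05 for the strain difference in edgeR's quasi-likelihood test (0 of 5794 genes, 0%), and the smallest adjusted p was 0.11. At an unadjusted p under 0.05 there were 245 genes, of which 163 (2.81% of those tested) were higher in Chr12 and 82 (1.42%) were lower. Scaled by library totals in place of TMM, 289 were higher and 49 lower. Because same-numbered libraries deviated together, the fit was repeated with each number and phase as a block, and it then called 3 genes, HXT6, YDR342C_1 and YGP1, with 662 at an unadjusted p under 0.05. With the block and the second tables of the replicate 1 libraries it called none. DESeq2 called 36 genes, 26 higher in Chr12 and 10 lower. The median standard error of the strain difference was 0.85 on the log2 scale. Most of the list medians below are smaller than this error of a single gene. Of the 12 genes picked below in each direction for large differences, 11 positive and 10 negative ones had an unadjusted p under 0.05. None of them passed the adjustment over the 5794 genes in this fit. Replicates 1 and 2 are therefore given side by side.

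In each strain alone the move to day 4 was large. In Chr12, 767 genes (13.2%) rose and 560 (9.67%) fell, and in the euploid 901 (15.6%) rose and 674 (11.6%) fell. With library totals as the scaling, 1277 rose and 338 fell in Chr12, and 1148 rose and 570 fell in the euploid. The fitted responses of the strains, which share no library, correlated with r = 0.83 across the 5794 genes, which are not independent replicates. Of 632 genes that rose in both strains, 222 had the larger fitted change in Chr12 and 410 the smaller. Of 461 genes that fell in both, 143 had the larger and 318 the smaller change in Chr12. SIT1 and FIT3, which both serve iron uptake, were the only genes called in opposite directions. The strain differences of replicate 1 and replicate 2 correlated with r = 0.20 across all genes and r = 0.36 across the 2897 genes above the median abundance. The differences of replicate 1, whose day 4 libraries were shallow, had a median size of 0.91, against 0.64 in replicate 2.

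The genes were read in 36 lists of known function. By the medians of the fitted responses, 13 lists moved further in Chr12, 17 moved less and 6 moved to the other side of 0. No list had opposite medians in the 2 strains in both replicates. The strain difference had a median above 0 in both replicate numbers for 15 lists and below 0 in both for 10, and its sign was mixed for 11. Over all genes tested the difference was above 0 in both replicate numbers for 1570 genes (27.1%) and below 0 in both for 1629 (28.1%), with a median of -0.09. These shares are the background for the counts of each list.

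**Figure D1:**
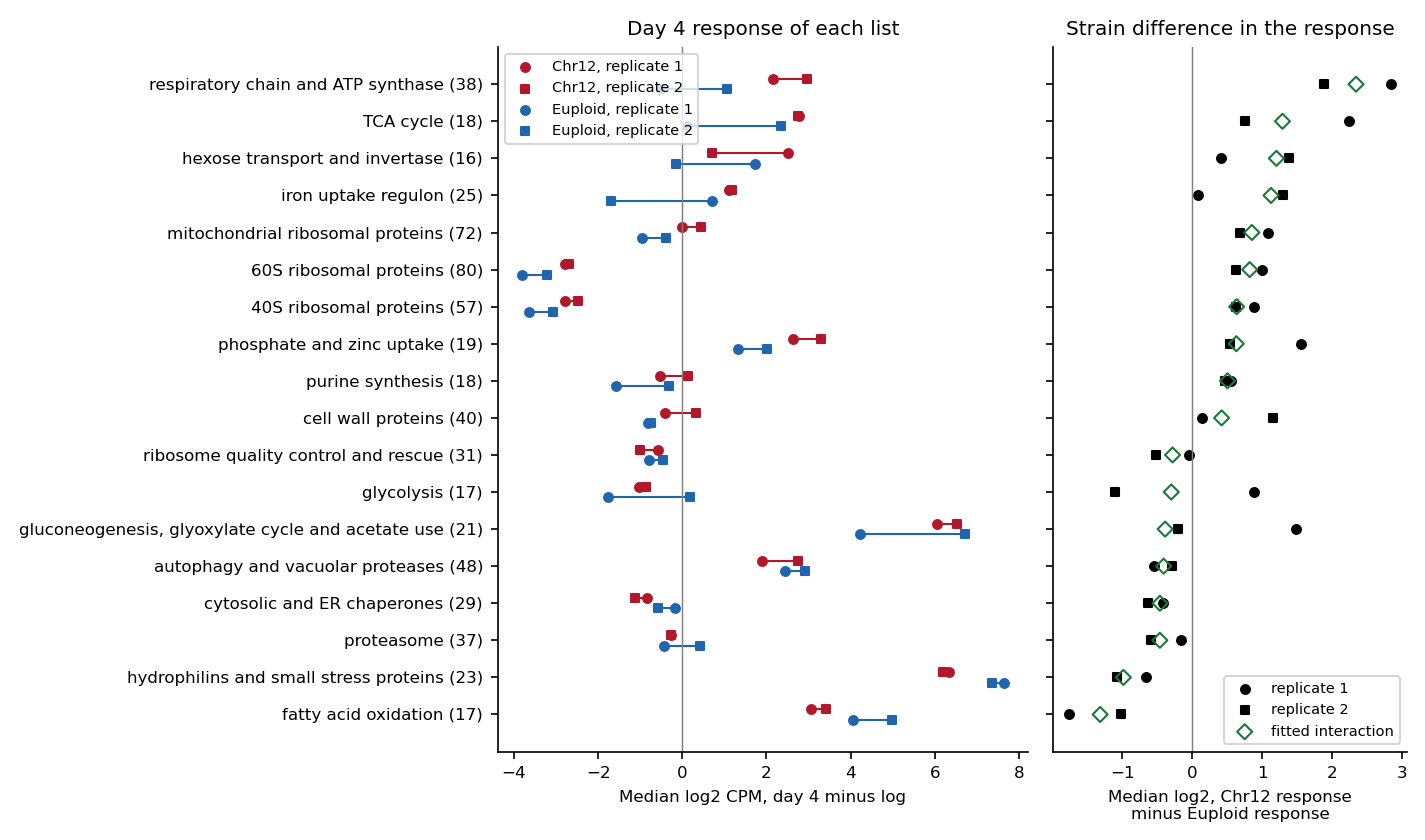
Median day 4 response (log2 CPM at day 4 minus log phase) of 18 gene lists in each strain and replicate at left, and the Chr12 response minus the euploid response at right, with the number of members tested in brackets. The respiratory chain list stands highest, with differences of 2.84 and 1.88 in replicates 1 and 2, and fatty acid oxidation lowest in replicate 1, with -1.76. In replicate 2 it had -1.02, and glycolysis (-1.10) and the hydrophilins (-1.08) were lower.

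The respiratory chain had the highest median strain difference of the 36 lists. Its complexes in the inner mitochondrial membrane pass electrons from NADH and succinate to oxygen, and ATP synthase uses the proton gradient that results. The list of 38 nuclear-encoded genes had a median day 4 response of 2.51 in Chr12, against 0.42 in the euploid. In replicates 1 and 2 the median response was 2.17 and 2.97 in Chr12, and -0.50 and 1.05 in the euploid. The median strain difference was 2.34 (2.84 and 1.88 in replicates 1 and 2). The difference was above 0 in both replicate numbers for 34 of the 38 and below 0 in both for none, and 19 had an unadjusted p under 0.05, all higher in Chr12. In Chr12, 21 members rose at an FDR of 0.05 and none fell, while in the euploid 5 rose and 1 fell. Over the 24 alternative settings the median difference stayed between 1.58 and 3.42, the highest value coming without the deep euploid day 4 library of replicate 2.

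Members of each complex in the list contributed. The 15 genes of ATP synthase and its inhibitor were above 0 in both replicate numbers without exception, and 10 of them had an unadjusted p under 0.05. Their median response was 2.35 in Chr12 (1.84 and 2.57 in replicates 1 and 2), against -0.09 in the euploid (-1.97 and 0.36). For cytochrome c oxidase, the complex that hands electrons to oxygen, the medians were 3.23 in Chr12 and 0.83 in the euploid, with 7 of 9 genes above 0 in both. Complex III with cytochrome c had medians of 2.48 in Chr12 (2.26 and 2.63) and 0.49 in the euploid (-0.34 and 1.30), with 10 of 11 above 0 in both. For ATP synthase, cytochrome c oxidase and complex III the euploid medians were thus below 0 in replicate 1 and above 0 in replicate 2. The euploid day 4 library of replicate 1 was the smallest. The NADH dehydrogenases, single proteins that stand in for complex I in this yeast, were above 0 in both for 2 of 3. The 4 subunits of complex II, succinate dehydrogenase, were not in this list but in that of the citric acid cycle below. They were above 0 in both, and their medians were 4.95 in Chr12 (4.61 and 5.19) and 2.54 in the euploid (0.87 and 3.43).

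CYC1, the main cytochrome c, had 391 and 809 CPM in Chr12 at day 4 and 420.0 and 813 CPM in Chr12 log phase, against 105 and 102 CPM in the euploid at day 4 and 1269 and 1290.4 CPM in euploid log phase. Each Chr12 replicate had nearly the same level at both phases, and in the euploid CYC1 fell (-3.63 ± 0.59, adjusted p = 0.0043). The strains did not overlap at either phase but stood in opposite order. The fitted strain difference was 3.59 ± 0.78 (adjusted p = 0.59), and up to 66.6% of the CYC1 reads of a library lay at 1 position. INH1, the inhibitor that stops ATP synthase from running backwards, had 183 and 499 CPM in Chr12 at day 4 and 11.8 and 18.9 CPM in Chr12 log phase, against 131.5 and 259.5 CPM in the euploid at day 4 and 65.6 and 121 CPM in euploid log phase. The gene rose in Chr12 (4.48 ± 0.74, adjusted p = 0.0065), where log phase was below every other library, and the day 4 values of the strains overlapped. COX4, a subunit of cytochrome c oxidase, had 526 and 1154 CPM in Chr12 at day 4 and 82.04 and 97.8 CPM in Chr12 log phase, against 124 and 327 CPM in the euploid at day 4 and 238 and 193 CPM in euploid log phase. Both Chr12 day 4 libraries stood above both euploid day 4 libraries, and both Chr12 log libraries stood below the euploid ones. ATP19, a small ATP synthase subunit, ran the same way with 145 and 153 CPM in Chr12 at day 4 and 19.7 and 16.2 CPM in Chr12 log phase, against 3.76 and 51.5 CPM in the euploid at day 4 and 61.2 and 39.9 CPM in euploid log phase, but the first euploid day 4 value is a single read.

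Succinate dehydrogenase was listed with the citric acid (TCA) cycle, which feeds the chain with electrons. SDH1, its catalytic subunit, had 797 and 1395 CPM in Chr12 at day 4 and 19.7 and 32.4 CPM in Chr12 log phase, against 214 and 927 CPM in the euploid at day 4 and 69.5 and 93.96 CPM in euploid log phase, and rose in both strains. SDH4, one of its membrane anchors, had 454 and 628 CPM in Chr12 at day 4 and 28.5 and 18.9 CPM in Chr12 log phase, against 45.1 and 216 CPM in the euploid at day 4 and 55.7 and 32.9 CPM in euploid log phase. SDH4 rose in Chr12 (4.51 ± 0.80, adjusted p = 0.0081) and did not pass the test in the euploid (1.60 ± 0.72, adjusted p = 0.14). Both genes were lower in Chr12 than in the euploid in log phase in each replicate, and at day 4 the strains overlapped for SDH1 and did not for SDH4. The 18 genes of the cycle had a median response of 2.75 in Chr12 (2.77 and 2.74), against 1.54 in the euploid (0.11 and 2.34). Their median strain difference was 1.29 (2.23 and 0.76). The difference was above 0 in both replicate numbers for 16 of 18 and below 0 in both for none, and 3 had an unadjusted p under 0.05. The alternatives gave medians from 0.64 without euploid day 4 replicate 1 to 2.48 without euploid day 4 replicate 2.

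A difference between responses can arise at either end, and the lists differed in where it lay. For the respiratory chain, the median level of Chr12 minus the euploid was 1.47 and 1.05 at day 4 and -1.24 and -0.77 in log phase (replicates 1 and 2). At day 4 Chr12 was higher in both replicate numbers for 31 of 38 genes, where the background over all genes was 1585 (27.4%), and lower in both for 1, against 1702 (29.4%) of all genes. In log phase it was lower in both for 32 of 38, against 1672 (28.9%) of all genes, and higher in both for none, against 1656 (28.6%) of all genes. The TCA cycle shared the lower log phase level in Chr12 (medians -0.85 and -0.53, with 14 of 18 lower in both).

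The proteins of the mitochondrial ribosome, which translates the few genes of mitochondrial DNA, shared the log phase part. Their 72 genes had a median strain difference of 0.85 (1.08 and 0.68), above 0 in both replicate numbers for 53 and below 0 in both for none, and 0.26 (without Chr12 day 4 replicate 2) to 1.76 (without euploid day 4 replicate 2) with a library left out. At day 4 the median of Chr12 minus the euploid was 0.10 and 0.03, whereas in log phase Chr12 minus the euploid was -0.91 and -0.70, and 67 of 72 genes were lower in both. The median response was 0.27 in Chr12 and -0.57 in the euploid, but only 2 members fell at the FDR in the euploid and none changed in Chr12. MRP2, a protein of the small mitochondrial subunit, had 34.4 and 29.4 CPM in Chr12 at day 4 and 19.2 and 10.1 CPM in Chr12 log phase, against 0 and 14.8 CPM in the euploid at day 4 and 39.1 and 19.6 CPM in euploid log phase, with no read in the first euploid day 4 library.

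**Figure D2:**
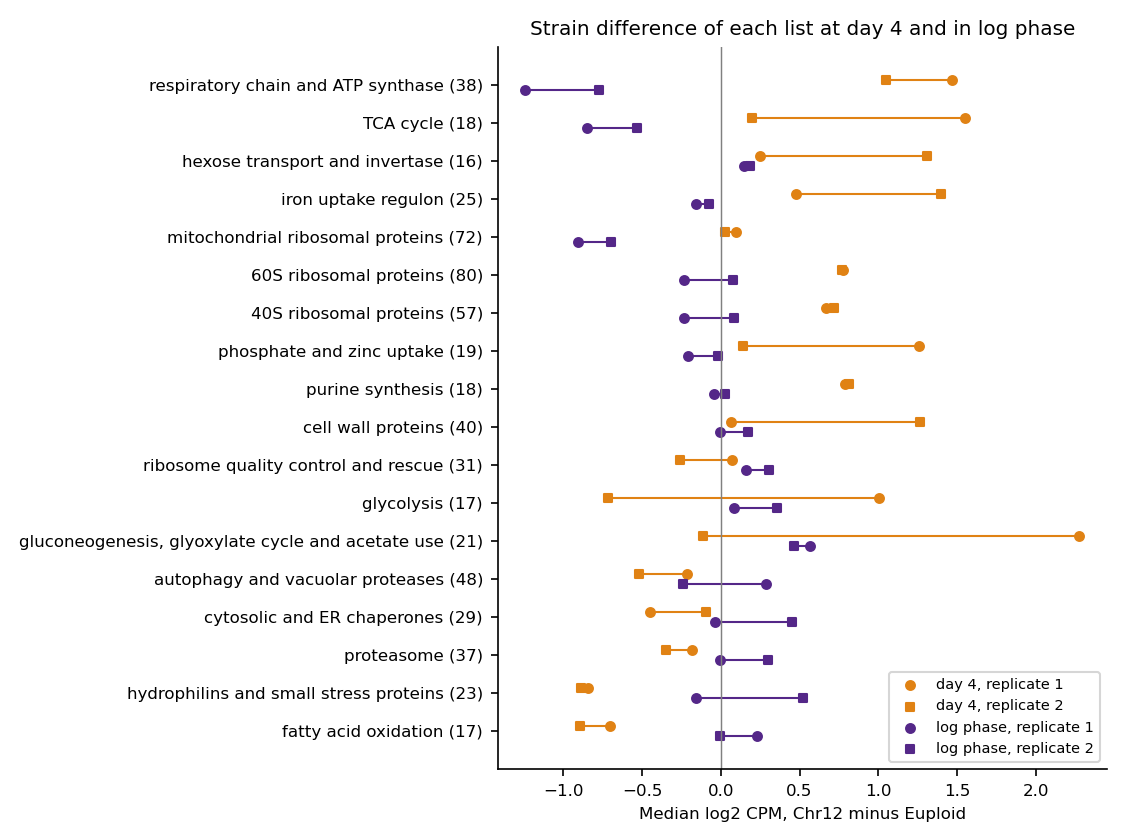
Median difference in level between Chr12 and the euploid (log2 CPM) for the same 18 lists at day 4 and in log phase, one point per replicate, with the number of members tested in brackets. The respiratory chain lay at 1.47 and 1.05 at day 4 and at -1.24 and -0.77 in log phase, the mitochondrial ribosomal proteins differed in log phase, and the 60S and 40S proteins differed at day 4.

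Cytosolic ribosomal proteins differed at the other end. They fell in both strains: of the 80 genes of the large (60S) subunit 76 fell in Chr12 and 79 in the euploid, and of the 57 genes of the small (40S) subunit 48 fell in Chr12 and 55 in the euploid. The fall was less deep in Chr12, with a 60S median of -2.70 in Chr12 and -3.50 in the euploid, and a 40S median of -2.63 in Chr12 and -3.30 in the euploid. The strain difference had a median of 0.82 for 60S (0.995 and 0.63) and 0.63 for 40S (0.89 and 0.63), and it was above 0 in both replicate numbers for 68 of 80 and 48 of 57. With a library left out the median was 0.53 (without Chr12 day 4 replicate 2) to 1.35 (without euploid day 4 replicate 2) for 60S and 0.31 (without Chr12 day 4 replicate 2) to 1.35 (without euploid day 4 replicate 2) for 40S. In log phase the medians of Chr12 minus euploid were -0.23 and 0.08 for both subunits, and at day 4 Chr12 was higher by 0.78 and 0.77 (60S) and by 0.67 and 0.72 (40S), with 69 of 80 and 47 of 57 genes higher in both. Most of these genes exist as near-identical pairs whose reads may be divided between the copies, so single members are uncertain. RPL37B, one such copy, had 318 and 188 CPM in Chr12 at day 4 and 771 and 1216 CPM in Chr12 log phase, against 52.6 and 77.9 CPM in the euploid at day 4 and 751 and 1267 CPM in euploid log phase. RPS28A had 179 and 168 CPM in Chr12 at day 4 and 761 and 1284 CPM in Chr12 log phase, against 71.4 and 72.3 CPM in the euploid at day 4 and 998 and 1402 CPM in euploid log phase. In both, the Chr12 day 4 values stood above the euploid ones and the log phase values overlapped.

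The factors that build ribosomes and those that act in translation had medians near 0. Ribosome biogenesis genes with RNA polymerase I (110 genes) had a median strain difference of 0.08, with 36 above and 27 below 0 in both replicate numbers, and translation factors (41 genes) one of 0.04. Purine synthesis, which supplies the adenine and guanine nucleotides of RNA, had a median of 0.50 (0.55 and 0.47), with 13 of 18 genes above 0 in both and none below. The median of Chr12 minus the euploid was 0.79 and 0.82 at day 4 and -0.04 and 0.02 in log phase. Without Chr12 day 4 replicate 2 the list's median strain difference was -0.05. ADE12, the enzyme that takes IMP towards AMP, had 148 and 197 CPM in Chr12 at day 4 and 201 and 233 CPM in Chr12 log phase, against 60.1 and 39.4 CPM in the euploid at day 4 and 287 and 288 CPM in euploid log phase, and it fell in the euploid (-2.57 ± 0.46, adjusted p = 0.006). ADE17, which completes IMP, had 213 and 425 CPM in Chr12 at day 4 and 65.8 and 69.5 CPM in Chr12 log phase, against 15.02 and 207 CPM in the euploid at day 4 and 157 and 105 CPM in euploid log phase, where the euploid day 4 libraries disagreed most. The ADE17 value of euploid day 4 replicate 1 rests on 4 reads.

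**Figure D3:**
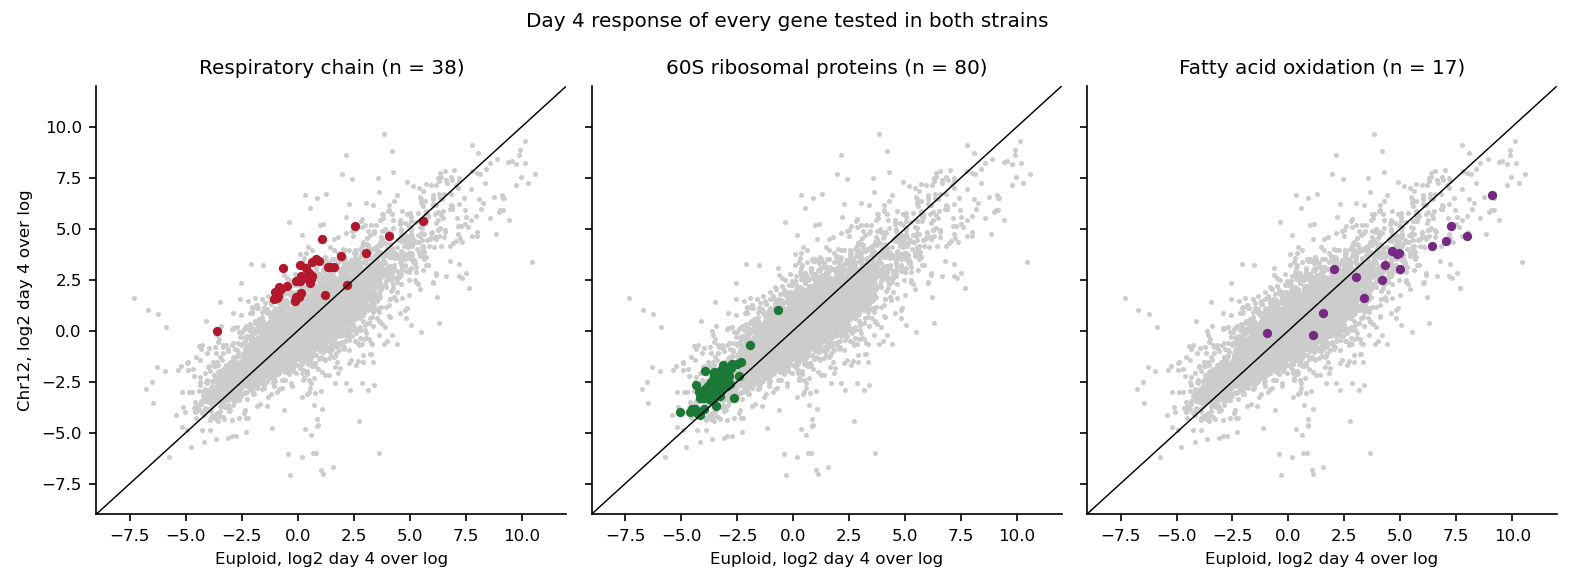
Fitted day 4 response (log2) of 5794 genes in Chr12 (vertical) and in the euploid (horizontal), in grey, with 38 respiratory chain genes, 80 genes of 60S proteins and 17 fatty acid oxidation genes coloured, and the line of equal response. The respiratory and 60S genes lie mostly above the line, and the fatty acid oxidation genes mostly below it.

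Sugar uptake held large strain differences of single genes, among them 2 of the 3 genes called with the replicate block. HXT6, a high-affinity glucose transporter that is repressed by abundant glucose, had 4106 and 5979 CPM in Chr12 at day 4 and 46.7 and 49.2 CPM in Chr12 log phase, against 199 and 273 CPM in the euploid at day 4 and 105 and 90.8 CPM in euploid log phase. It rose in Chr12 (6.71 ± 0.56, adjusted p = 0.0019) and in the euploid did not pass the test (1.28 ± 0.45, adjusted p = 0.07). The strain difference was 5.44 ± 0.66 (adjusted p = 0.11) in edgeR without a block and had an adjusted p of 0.0148 with the replicate numbers as a block. YDR342C_1, an entry whose identifier is built on the systematic name of the transporter HXT7, had 4073 and 4792 CPM in Chr12 at day 4 and 94.3 and 125 CPM in Chr12 log phase, against 297 and 239 CPM in the euploid at day 4 and 368 and 326 CPM in euploid log phase, with a strain difference of 5.72 ± 0.64 (adjusted p = 0.11). Both Chr12 day 4 libraries were over 10 times as high as either euploid day 4 library for both genes. HXT6 and HXT7 are near-identical, so reads may be shared between these entries and they do not count as separate observations.

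SUC2, the secreted invertase that splits sucrose, was chosen after its values were seen and had 322 and 489 CPM in Chr12 at day 4 and 40.8 and 26.97 CPM in Chr12 log phase, against 33.8 and 25.3 CPM in the euploid at day 4 and 25.9 and 21.1 CPM in euploid log phase. SUC2 rose in Chr12 (3.58 ± 0.50, adjusted p = 0.0047), where both day 4 libraries stood above all 6 others. The isomaltase genes IMA2 and IMA4, which act on sugars of the isomaltose type and were likewise chosen after their values were seen, stood out in the same libraries. IMA2 had 1479 and 1514 CPM in Chr12 at day 4 and 3.44 and 4.05 CPM in Chr12 log phase, against 11.3 and 23.1 CPM in the euploid at day 4 and 7.17 and 0.783 CPM in euploid log phase. IMA4 had 1047 and 1112 CPM in Chr12 at day 4 and 8.84 and 3.37 CPM in Chr12 log phase, against 7.51 and 30.8 CPM in the euploid at day 4 and 2.76 and 5.48 CPM in euploid log phase. Both rose in Chr12. In the euploid IMA4 rose (2.42 ± 0.76, adjusted p = 0.049) and IMA2 did not pass the test (2.14 ± 0.80, adjusted p = 0.085). The IMA genes are a family of close copies, and the low groups held between 1 and 191 reads a library. HXT11, a transporter with few reads outside Chr12 day 4, had 456 and 266 CPM in Chr12 at day 4 and 5.40 and 1.35 CPM in Chr12 log phase, against 15.02 and 0.645 CPM in the euploid at day 4 and 3.86 and 0.783 CPM in euploid log phase. It had the highest fitted strain difference of the list, 6.33 ± 2.02 (adjusted p = 0.95). Its close relative HXT9, whose reads may be shared with it, had a difference of 5.48 ± 1.42 (adjusted p = 0.75), and both rose in Chr12. Among 16 transporters, sensors and invertase the median strain difference was 1.201, with replicates far apart (0.41 and 1.38), 10 above 0 in both replicate numbers, 3 below and 5 at an unadjusted p under 0.05. Without euploid day 4 replicate 1 the list's median was 3.39 and without euploid day 4 replicate 2 it was 0.48.

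Iron uptake held the genes called in opposite directions. Yeast captures iron at the cell wall with the FIT mannoproteins, takes up iron-siderophore complexes through transporters such as Sit1, or reduces iron with FRE reductases and imports it through the oxidase Fet3 and the permease Ftr1. FIT3 had 470.1 and 437 CPM in Chr12 at day 4 and 133 and 48.6 CPM in Chr12 log phase, against 11.3 and 8.23 CPM in the euploid at day 4 and 55.7 and 52.5 CPM in euploid log phase. FIT3 rose in Chr12 (2.32 ± 0.55, adjusted p = 0.021) and fell in the euploid (-2.56 ± 0.62, adjusted p = 0.018), although the euploid replicate 1 value at day 4 rests on 3 reads. FIT2 had 311 and 716 CPM in Chr12 at day 4 and 83.02 and 23.6 CPM in Chr12 log phase, against 15.02 and 4.68 CPM in the euploid at day 4 and 33.1 and 31.3 CPM in euploid log phase, and at day 4 both Chr12 libraries were above both euploid libraries while log phase overlapped. It rose in Chr12 (3.26 ± 0.80, adjusted p = 0.022) and had a response of -2.10 ± 0.89 (adjusted p = 0.12) in the euploid, where the replicate 1 value at day 4 rests on 4 reads. FIT1, the other gene of this group and chosen after its values were seen, had at most 13 reads in any library and differences of -1.88 and -1.76 in replicates 1 and 2, below 0 in both, with a fitted value of -2.05 ± 2.98 (adjusted p = 0.999).

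SIT1, chosen after its values were seen, had 212 and 306 CPM in Chr12 at day 4 and 91.4 and 87.7 CPM in Chr12 log phase, against 52.6 and 32.4 CPM in the euploid at day 4 and 143 and 106 CPM in euploid log phase. SIT1 rose in Chr12 (1.53 ± 0.46, adjusted p = 0.046) and fell in the euploid (-1.60 ± 0.48, adjusted p = 0.04), and its strain difference was 3.13 ± 0.66 (adjusted p = 0.59). FET3 had 121 and 226 CPM in Chr12 at day 4 and 330.1 and 540.2 CPM in Chr12 log phase, against 26.3 and 17.1 CPM in the euploid at day 4 and 477 and 505 CPM in euploid log phase. FTR1 had 410.4 and 484 CPM in Chr12 at day 4 and 448 and 590.1 CPM in Chr12 log phase, against 18.8 and 65.5 CPM in the euploid at day 4 and 555 and 533 CPM in euploid log phase. Both fell in the euploid (FET3 -4.57 ± 0.60, adjusted p = 0.0024, and FTR1 -3.59 ± 0.63, adjusted p = 0.0056) and did not pass the test in Chr12 (FET3 -1.32 ± 0.51, adjusted p = 0.1, and FTR1 -0.21 ± 0.56, adjusted p = 0.83). The euploid day 4 values of replicate 1 rest on 7 reads for FET3 and 5 for FTR1. Log phase values of the strains lay within a factor of 1.5 of each other for FTR1, and at day 4 both Chr12 values stood above both euploid ones for both genes, which were also chosen after their values were seen.

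Reductases did not follow as a group. FRE1, which lies on chromosome XII and was chosen after its values were seen, had 235 and 639.6 CPM in Chr12 at day 4 and 361 and 158 CPM in Chr12 log phase, against 67.6 and 42.6 CPM in the euploid at day 4 and 432 and 201 CPM in euploid log phase, with a strain difference of 3.31 ± 0.997. FRE3 had 16.3 and 0.774 CPM in Chr12 at day 4 and 175 and 15.5 CPM in Chr12 log phase, against 492 and 0.807 CPM in the euploid at day 4 and 208 and 16.4 CPM in euploid log phase, and its replicates disagreed within every group. FRE4 had 12.7 and 6.19 CPM in Chr12 at day 4 and 302 and 244 CPM in Chr12 log phase, against 60.1 and 3.06 CPM in the euploid at day 4 and 126 and 125 CPM in euploid log phase, with a strain difference of -2.66 ± 1.59. The 6 reductases had median differences of -1.80 and 2.94 in replicates 1 and 2, and the 4 siderophore transporters of -0.50 and 4.26. Over all 25 iron genes tested the median strain difference was 1.12 (0.08 and 1.30), with 12 above 0 in both replicate numbers, 3 below and 6 at an unadjusted p under 0.05, all higher in Chr12. Leaving out a library gave 0.51 (without euploid day 4 replicate 2) to 2.73 (without euploid day 4 replicate 1). CTR1, the high-affinity importer of the copper that the Fet3 oxidase needs, had 137 and 552 CPM in Chr12 at day 4 and 151 and 121 CPM in Chr12 log phase, against 22.5 and 201 CPM in the euploid at day 4 and 298 and 350.0 CPM in euploid log phase, with overlap between the strains at day 4 and a difference of 2.82 ± 1.32 (adjusted p = 0.999).

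**Figure D4:**
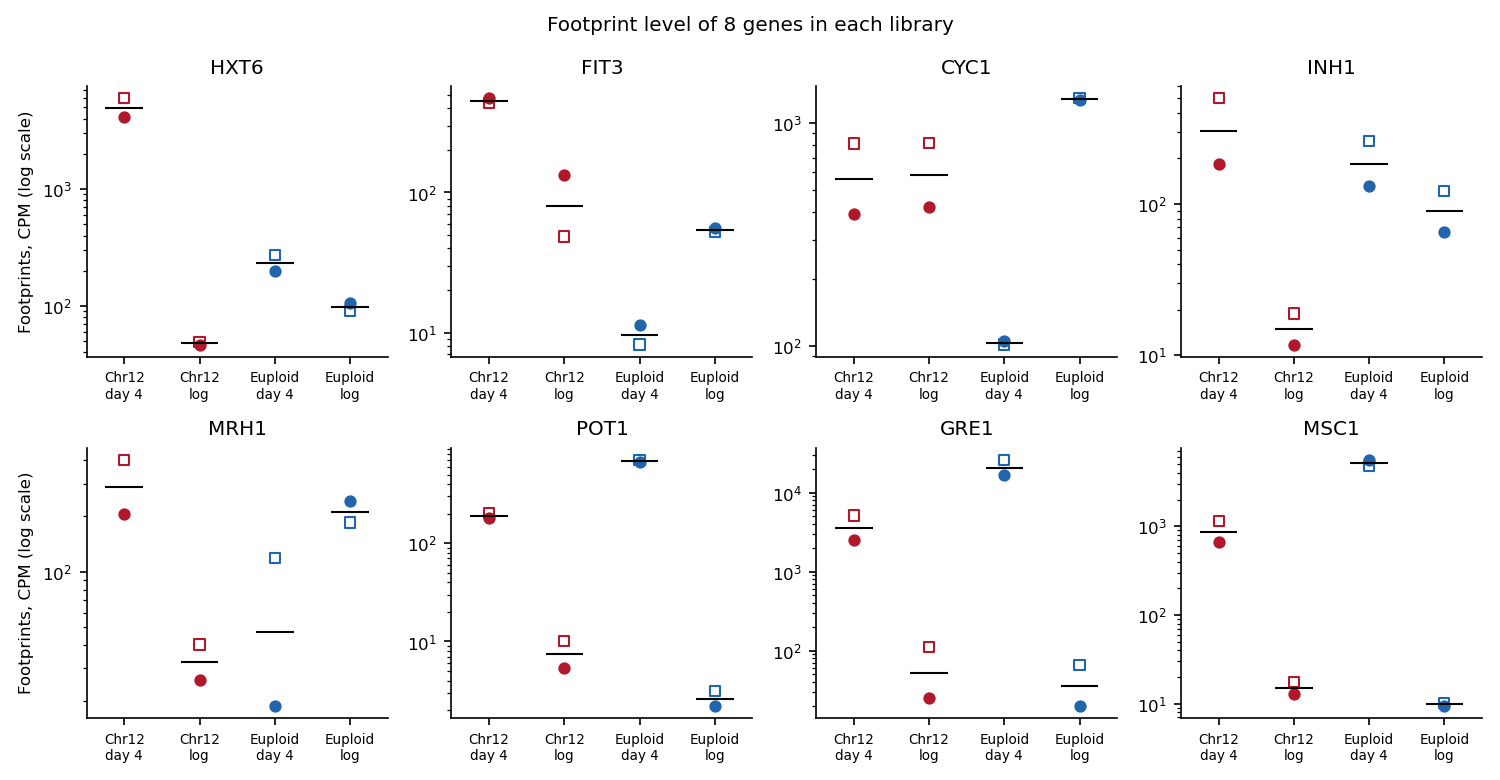
Footprint level (CPM, log axis) of 8 genes in each of the 8 libraries. Filled circles are replicate 1, open squares are replicate 2, and bars are geometric means. HXT6 and FIT3 were highest in Chr12 at day 4, CYC1 and MRH1 were lower in Chr12 than in the euploid in log phase, and POT1, GRE1 and MSC1 were highest in the euploid at day 4.

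At the cell surface the picture was split by gene. PHO5, the secreted acid phosphatase of phosphate starvation, had 353 and 769 CPM in Chr12 at day 4 and 29.5 and 35.7 CPM in Chr12 log phase, against 15.02 and 58.7 CPM in the euploid at day 4 and 29.2 and 29.8 CPM in euploid log phase, and rose in Chr12 (4.11 ± 0.72, adjusted p = 0.0076), with both Chr12 day 4 libraries above all others. The 19 genes of phosphate and zinc uptake had a median response of 3.05 in Chr12, against 1.36 in the euploid, and a median strain difference of 0.63 (1.55 and 0.54), with 11 above 0 in both replicate numbers and 2 below, and 0.34 (without euploid day 4 replicate 1) to 1.95 (without euploid day 4 replicate 2) with a library left out. HPF1, a cell wall mannoprotein, had 30.7 and 128 CPM in Chr12 at day 4 and 71.7 and 46.5 CPM in Chr12 log phase, against 7.51 and 8.23 CPM in the euploid at day 4 and 195 and 84.6 CPM in euploid log phase, and it fell in the euploid (-4.11 ± 0.84, adjusted p = 0.0096), where the day 4 values of both replicates were below every Chr12 library. MRH1, a membrane protein related to the heat shock protein Hsp30, had 204 and 403 CPM in Chr12 at day 4 and 26.04 and 40.5 CPM in Chr12 log phase, against 18.8 and 119 CPM in the euploid at day 4 and 243 and 185 CPM in euploid log phase. MRH1 rose in Chr12 (3.20 ± 0.82, adjusted p = 0.026), its log phase levels were lower in Chr12, and its euploid day 4 values were 5 and 739 reads. In euploid day 4 replicate 1, HPF1 held only 2 reads and PHO5 only 4.

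FLO11, a surface flocculin, had 107 and 109.6 CPM in Chr12 at day 4 and 26.5 and 5.39 CPM in Chr12 log phase, against 184 and 166 CPM in the euploid at day 4 and 323 and 216 CPM in euploid log phase. FLO11 rose in Chr12 (2.74 ± 0.71, adjusted p = 0.027) and had a response of -0.63 ± 0.66 (adjusted p = 0.53) in the euploid, and at day 4 both Chr12 libraries were still below both euploid libraries. SCW4, a wall glucanase-like protein, had 101.2 and 167 CPM in Chr12 at day 4 and 584 and 437 CPM in Chr12 log phase, against 37.6 and 3.06 CPM in the euploid at day 4 and 766 and 500.4 CPM in euploid log phase. It fell in the euploid (-5.37 ± 1.13, adjusted p = 0.011), with day 4 values below both Chr12 ones. PIR3, a covalently linked wall protein of the stress response, ran the other way with 407 and 639 CPM in Chr12 at day 4 and 90.9 and 99.1 CPM in Chr12 log phase, against 1916 and 3577 CPM in the euploid at day 4 and 72.8 and 71.3 CPM in euploid log phase. It rose in both strains, to the lower level in Chr12 at day 4, and its strain difference was -2.79 ± 0.70 (adjusted p = 0.71). Over 40 wall proteins the median strain difference was 0.42 (0.14 and 1.15), 16 were above 0 in both replicate numbers and 5 below, and 8 were higher and 1 lower at an unadjusted p under 0.05. With a library left out the median was 0.26 (without euploid log replicate 1) to 1.71 (without euploid day 4 replicate 1).

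Fatty acid oxidation had the lowest median strain difference of the 36 lists. In yeast it runs wholly in the peroxisome, through the acyl-CoA oxidase Pox1, the multifunctional enzyme Fox2 and the thiolase Pot1. The 17 genes had a median response of 3.23 in Chr12, against 4.62 in the euploid, with 13 rising in Chr12 and 14 in the euploid. The median strain difference was -1.32 (-1.76 and -1.02), 14 of 17 were below 0 in both replicate numbers and 2 above, and 4 had an unadjusted p under 0.05, all lower in Chr12. At day 4 the median of Chr12 minus the euploid was -0.70 and -0.89, with 13 of 17 genes lower in both replicates, and in log phase the medians were 0.23 and -0.01. The list's median stayed between -1.61 and -0.94 in all 24 alternatives.

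POT1 had 179 and 203 CPM in Chr12 at day 4 and 5.40 and 10.1 CPM in Chr12 log phase, against 672 and 706 CPM in the euploid at day 4 and 2.21 and 3.13 CPM in euploid log phase. It rose in both strains (4.63 ± 0.53, adjusted p = 0.0027 in Chr12 and 8.001 ± 0.63, adjusted p = 0.0014 in the euploid), the day 4 groups did not overlap, and its strain difference was -3.37 ± 0.72 (adjusted p = 0.59). FOX2 had 549.6 and 474 CPM in Chr12 at day 4 and 13.8 and 14.8 CPM in Chr12 log phase, against 1878 and 1749 CPM in the euploid at day 4 and 11.6 and 11.7 CPM in euploid log phase, and likewise rose in both strains with no overlap at day 4 and a difference of -2.12 ± 0.60. POX1 had 213 and 270.2 CPM in Chr12 at day 4 and 15.2 and 7.42 CPM in Chr12 log phase, against 928 and 794 CPM in the euploid at day 4 and 4.41 and 8.61 CPM in euploid log phase, with a difference of -2.66 ± 0.77. Log phase values of all 3 genes rested on between 4 and 31 reads a library, so the size of these responses is less certain than the gap at day 4, where each library held at least 99 reads.

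Hydrophilins and small stress proteins, which accumulate in drying or resting cells and are thought to shield other proteins and membranes, mostly rose in both strains. Of 23 genes, 22 rose in Chr12 and 20 in the euploid, and the median response was 6.18 in Chr12, against 8.06 in the euploid. The median strain difference was -0.99 (-0.66 and -1.08), with 12 below 0 in both replicate numbers and 5 above, and leaving out a library gave -1.69 (without Chr12 day 4 replicate 2) to -0.11 (without euploid day 4 replicate 2). At an unadjusted p under 0.05, 6 were lower in Chr12 and 2 were higher. GRE1, a hydrophilin of osmotic stress, had 2547 and 5131 CPM in Chr12 at day 4 and 25.1 and 109.9 CPM in Chr12 log phase, against 16583 and 26120.4 CPM in the euploid at day 4 and 19.8 and 64.99 CPM in euploid log phase. MSC1, a gene named for meiotic recombination and not in the list, had 658 and 1147 CPM in Chr12 at day 4 and 12.8 and 17.5 CPM in Chr12 log phase, against 5634 and 4764 CPM in the euploid at day 4 and 9.37 and 10.2 CPM in euploid log phase. Both genes rose in both strains, and at day 4 the Chr12 values were below the euploid values without overlap, with differences of -3.15 ± 1.18 for GRE1 and -3.15 ± 0.69 for MSC1.

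RTN2, a reticulon-like protein that shapes the endoplasmic reticulum, had 369 and 441 CPM in Chr12 at day 4 and 8.35 and 10.1 CPM in Chr12 log phase, against 856 and 4145 CPM in the euploid at day 4 and 3.31 and 3.92 CPM in euploid log phase, the lowest fitted difference of its list (-3.97 ± 1.07, adjusted p = 0.81). YGP1, a secreted glycoprotein of nutrient limitation, and HOR7, a small hyperosmolarity-responsive protein, went against the list. YGP1 had 77.7 and 250.5 CPM in Chr12 at day 4 and 5.90 and 6.74 CPM in Chr12 log phase, against 15.02 and 42.4 CPM in the euploid at day 4 and 24.3 and 31.3 CPM in euploid log phase, and its strain difference passed the FDR with the replicate block (adjusted p = 0.0393, against 0.590 without it) and, with no block, when 1 read was counted per position. The YGP1 value of euploid day 4 replicate 1 rests on 4 reads. HOR7 had 759 and 1218 CPM in Chr12 at day 4 and 32.9 and 8.77 CPM in Chr12 log phase, against 207 and 176 CPM in the euploid at day 4 and 60.1 and 24.3 CPM in euploid log phase. Both rose in Chr12, and for both the Chr12 day 4 values stood above the euploid ones.

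**Figure D5:**
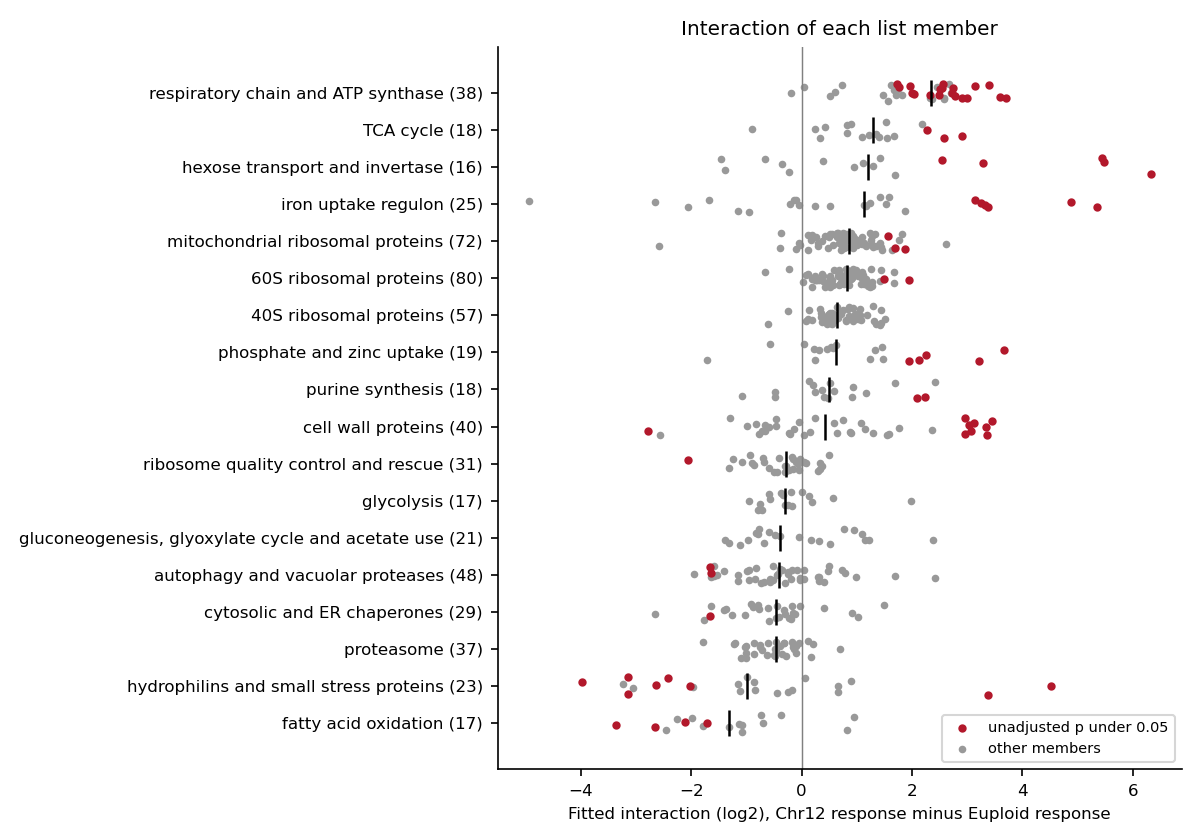
Fitted strain difference (log2, Chr12 response minus euploid response) of each member of the 18 lists, with list medians as black bars and members at an unadjusted p under 0.05 in red. Of the respiratory chain genes 19 of 38 are red, and of the fatty acid oxidation genes 4 of 17. None of the points passed an FDR of 0.05.

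The rest of the genes with the most repeatable negative differences had varied roles. MHO1, a gene of little known function, had 128 and 180.4 CPM in Chr12 at day 4 and 7.86 and 7.42 CPM in Chr12 log phase, against 661 and 1085 CPM in the euploid at day 4 and 4.41 and 6.26 CPM in euploid log phase, and rose in both strains without overlap at day 4. GLO1, which detoxifies methylglyoxal with glutathione, had 116 and 109 CPM in Chr12 at day 4 and 159 and 145 CPM in Chr12 log phase, against 751 and 691 CPM in the euploid at day 4 and 158 and 135 CPM in euploid log phase. It rose in the euploid (2.30 ± 0.41, adjusted p = 0.006) and had a response of -0.44 ± 0.40 (adjusted p = 0.49) in Chr12, and at day 4 both euploid values were over 5 times as high as either Chr12 value. DPC7, which has hardly a read in log phase, had 358 and 436 CPM in Chr12 at day 4 and 3.44 and 0 CPM in Chr12 log phase, against 2389 and 1547 CPM in the euploid at day 4 and 2.21 and 0 CPM in euploid log phase, and rose in both strains. TKL2, the minor transketolase, had 1139 and 91.4 CPM in Chr12 at day 4 and 159 and 14.8 CPM in Chr12 log phase, against 4462 and 1588 CPM in the euploid at day 4 and 74.98 and 9.40 CPM in euploid log phase, but between 79.2% and 94.8% of its reads in the 4 replicate 1 libraries lay at a single position. Its strain difference was -3.34 ± 2.06 (adjusted p = 0.999) with all reads, and it passed the FDR, lower in Chr12, without each gene's highest position and with 1 read per position.

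ECM10, a mitochondrial Hsp70, had 92.2 and 61.2 CPM in Chr12 at day 4 and 113 and 34.4 CPM in Chr12 log phase, against 398 and 287 CPM in the euploid at day 4 and 56.2 and 43.1 CPM in euploid log phase. ASK10, a regulator of the glycerol channel Fps1, had 57.9 and 25.2 CPM in Chr12 at day 4 and 51.1 and 26.97 CPM in Chr12 log phase, against 101.4 and 103 CPM in the euploid at day 4 and 21.5 and 16.4 CPM in euploid log phase. Each of them rose in the euploid, and neither passed the test in Chr12. The highest position of ECM10 held 71.7% and 58.8% of its reads in Chr12 log phase and 83.3% and 50.9% in euploid log phase. At day 4 that share was 21.6% and 8.23% in Chr12 and 53.8% and 6.24% in the euploid. The size of the ECM10 response in each strain is therefore uncertain. Its strain difference lay between -3.34 and -1.62 over the 24 alternatives. The 12 genes with the largest repeatable positive differences had fitted values between 2.82 and 5.72, and the 12 negative ones had values between -3.97 and -2.12. DESeq2 called 9 of the 12 positive and 6 of the 12 negative genes, against 36 of all 5794 genes tested. The 24 were picked by the size of their differences in these same data, so these calls are no separate support. Of the 24, 0 were genes of chromosome XII, which held 499 of the 5794 genes tested, so a small count there carries little information. In the smallest library, euploid day 4 replicate 1, the positive genes held between 1 and 79 reads and the negative ones between 27 and 4415. COX4 was the last positive gene inside this selection (smaller difference 2.79) and FLO11 the first outside (2.77), and DPC7 (-1.83) and VPS35 (-1.77) stood at the edge of the negative ones.

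Of the protein quality control lists, those of the cytosol, the endoplasmic reticulum and the vacuole had median differences below 0 and that of mitochondria one above 0. Proteasome genes (37) had a median strain difference of -0.46 (-0.17 and -0.59), with 20 below 0 in both replicate numbers, 1 above and none at an unadjusted p under 0.05, and without euploid day 4 replicate 2 the median was 0.21. Chaperones of the cytosol and the endoplasmic reticulum (29) had a median of -0.46 (-0.42 and -0.64), with 19 below 0 in both and 3 above, and a median response of -1.21 in Chr12 and -0.08 in the euploid. Autophagy and vacuolar proteases (48) had a median of -0.41 (-0.56 and -0.29), with 17 below 0 in both and 6 above, and 26 members rose in Chr12 and 29 in the euploid. Leaving out a library gave -1.01 (without Chr12 day 4 replicate 2) to -0.0085 (without euploid day 4 replicate 2) for these chaperones and -0.68 (without Chr12 day 4 replicate 2) to -0.014 (without euploid day 4 replicate 2) for autophagy. Chaperones, proteases and import factors of mitochondria (34) had a median of 0.26 (0.44 and 0.31), with 17 above 0 in both and 6 below.

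Ribosome quality control clears stalled ribosomes and their unfinished chains: Hel2 marks collided ribosomes, Rqc2 and Rqc1 act on the freed large subunit, and the ligase Rkr1 (Ltn1) tags the chain with ubiquitin. The 31 genes of this list had a median strain difference of -0.28 (-0.04 and -0.52), with 13 below 0 in both replicate numbers and 4 above. It was 0.07 with library totals as the scaling and 0.01 without euploid day 4 replicate 2. The fitted strain difference was -0.90 ± 0.57 for RKR1, 0.29 ± 0.65 for HEL2, 0.34 ± 0.66 for RQC1 and -0.11 ± 0.74 for RQC2. Each of the 4 was within 2 standard errors of 0. RKR1 had 63.3 and 50.7 CPM in Chr12 at day 4 and 83.5 and 79.6 CPM in Chr12 log phase, against 97.7 and 95.3 CPM in the euploid at day 4 and 88.8 and 59.5 CPM in euploid log phase, a spread of less than a factor of 2 over all 8 libraries. UBI4, the stress-induced polyubiquitin gene, had 1349 and 1931 CPM in Chr12 at day 4 and 118 and 122.7 CPM in Chr12 log phase, against 4481 and 2209 CPM in the euploid at day 4 and 87.7 and 116 CPM in euploid log phase. It rose in both strains, and its difference of -1.27 ± 0.71 did not pass the test. The proteasome-bound deubiquitinase UBP6 had a difference of -0.69 ± 0.90 and the disaggregase HSP104 one of -0.16 ± 1.04. MBF1, a coactivator that also prevents frameshifts on collided ribosomes, was the 1 member of the list at an unadjusted p under 0.05. It had 222 and 495 CPM in Chr12 at day 4 and 467 and 823 CPM in Chr12 log phase, against 1307 and 574 CPM in the euploid at day 4 and 358 and 449 CPM in euploid log phase, with a difference of -2.06 ± 0.87.

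Glycolysis and gluconeogenesis gave strain differences of mixed sign. All 21 genes of gluconeogenesis, the glyoxylate cycle and acetate use rose in both strains, with a median response of 6.56 in Chr12 and 6.18 in the euploid. Their strain difference had medians of 1.48 and -0.21 in replicates 1 and 2. Glycolysis (17 genes) gave 0.89 and -1.10. In both lists the sign turned with the replicate, and only 1 of the 17 glycolytic genes was on 1 side of 0 in both. The 15 other lists had median strain differences between -0.57 (the alpha-specific genes, of which 3 were tested) and 0.31 (histones), apart from 1.07 for the 6 a-specific genes.

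Genes of the duplicated chromosome had a median strain difference close to that of the others. The 499 chromosome XII genes had a median strain difference of 0.03, against -0.09 for genes of other chromosomes, a gap of 0.13 that was -0.17 in replicate 1 and 0.23 in replicate 2. Of these genes 142 (28.5%) were above 0 in both replicate numbers and 124 (24.8%) below, and 7 were higher and 5 lower at an unadjusted p under 0.05.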

How the data were processed

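Ribosome-protected fragments of 8 yeast cultures were sequenced in 4 groups of 2 replicates, and the ribosome profiling was done by Ezra Biosciences. The labels of the samples gave the groups and the replicate numbers. The deposited files hold raw counts: per the study's methods the authors trimmed the reads, discarded noncoding RNA reads, aligned what was left to a YPS1009 genome and scored read 5′ ends at each position of a gene and its flanks. Duplicate reads are not described as removed, so copies of a molecule count as separate reads, and there was no spike-in, so every level is a share of its library. A gene count here was the sum of all positions of its row. For each replicate 1 library the table made on the YPS1009 genome was used, and the 4 second tables were tried as an alternative setting. Of 6537 genes listed, 6533 had a systematic name (the others held at most 0.0222% of a library's reads), and 5822 matched a symbol in the R64 gene table. Libraries held 211302 to 6215498 reads, with between 2.09 and 10.95 reads per occupied position.

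Counts were fitted with edgeR 4.0.16 (quasi-likelihood, TMM scaling, filterByExpr by group) under R 4.3.3, with 4 group means and no block over all 8 libraries, with Benjamini-Hochberg adjustment of the p-values over the 5794 genes tested. Values with ± are log2 estimates with their standard errors. Differences per replicate number were taken from log2 CPM with a prior count of 2. Deviations from the group means correlated between same-numbered libraries in every pair of groups (r = 0.16 to 0.69), so the numbers were read as pairs and the fit with phase and number as a block is given where it changed a call. DESeq2 1.42.0 was an alternative, as were other scalings, filters, counts without each gene's highest position, 1 read per position, thinned reads and leaving out each library. The code was tested on simulated data. Tables and figures were made with Python.

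The comparison, the 36 gene lists and the tests were chosen with earlier results of these data known. The genes named were those past the FDR (none), the 12 in each direction above the median abundance with the largest value of the smaller of both replicate differences, the 2 highest and 2 lowest members of each list (143 genes, of which 26 are described, picked with their values in view), and 8 genes of ribosome quality control and its surroundings. Genes outside this rule are marked in the text as chosen after their values were seen. Promoter motifs, which had been planned, were not run because no promoter sequence was used here. Nothing was taken from the authors' own comparisons.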

Additional observations from a re-analysis of the deposited data

Results flagged for a closer look

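For 11 of the genes named, both Chr12 replicates moved one way between log phase and day 4 and both euploid replicates moved the other way. Many of the genes named were picked for large strain differences in these data, and the same count over all genes tested was not made. In euploid day 4 replicate 1, FIT2 held 4 reads, FIT3 3, MRH1 5 and MRP2 none. The euploid direction of these genes in that replicate is therefore uncertain. Chr12 moved up and the euploid down for YDR342C_1 (fitted strain difference 5.72), FIT2 (5.36), FIT3 (4.88), MRH1 (4.74), FLO11 (3.36), SIT1 (3.13), MRP2 (2.61) and RQC1 (0.34). Chr12 moved down and the euploid up for GLO1 (-2.74), MBF1 (-2.06) and RKR1 (-0.90). The difference itself was tested in edgeR for each gene, and with TMM scaling, all reads and no block none of the 11 passed an FDR of 0.05. Under other settings without a block, DESeq2 called 7 of them (YDR342C_1, FIT2, FIT3, MRH1, FLO11, SIT1 and GLO1), counting 1 read per position called 5 (YDR342C_1, FIT2, FIT3, MRH1 and SIT1), and library totals, at least 10 reads in each library and leaving out the highest position each called YDR342C_1. With the block, YDR342C_1 passed (adjusted p = 0.0148) and the other 10 did not. In 2 settings chosen after seeing the data, the block without the highest position called the same 7 as DESeq2, and the block with the second tables called 0. The single responses of FIT3 and SIT1 passed the FDR in both strains, and those of RQC1, RKR1, MBF1 and MRP2 in neither. With 2 replicates per group no sample could be tested as an outlier.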

How the results depend on the processing

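The counts of genes past each threshold, 18 of the 36 list medians and the genes described were recomputed under up to 24 alternatives, fewer where a filter removed the gene. The other list medians, the single complexes and iron groups and the genes called in both strains were not. The number of genes past the FDR for the strain difference was 0 in edgeR without a block, 3 with phase and number as a replicate block, 36 in DESeq2, 2 with library totals as the scaling, 2 with at least 10 reads in each library, 4 without each gene's highest position and 21 with 1 read per position. It was 0 with every single library left out. With the replicate block and without the highest position, a pair of settings chosen after seeing the data, it was 34, and with the block and the second tables, also chosen then, it was 0. Genes at an unadjusted p under 0.05 numbered 245, and 662 with the replicate block by phase, 121 with at least 10 reads, 438 with 1 read per position and 422 with the second tables. With that block they numbered 735 without the highest position and 690.0 with the second tables (both chosen after seeing the data). Over the left-out libraries they ranged from 137 (without Chr12 log replicate 1) to 853 (without euploid day 4 replicate 2). A block of replicate number alone gave 0 and 367 genes. Why the counts differ between settings was not tested.

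The median strain difference of all genes was -0.085. It was -0.021 with the plain replicate block and -0.020 with the replicate block by phase, -0.12 in DESeq2, -0.11 with RLE size factors, 0.22 with library totals, -0.056 for gene bodies, -0.048 without the highest position, -0.0069 with 1 read per position, -0.038 with thinned reads and -0.065 with the second tables. With the block by phase it was -0.021 without the highest position and -0.050 with the second tables. Leaving out a library gave -0.14 (without Chr12 day 4 replicate 2) to 0.26 (without euploid day 4 replicate 2). The chromosome XII gap stayed within the spread of the replicates, at -0.018 (without euploid log replicate 2) to 0.17 (without Chr12 day 4 replicate 1). Genes called for the response of Chr12 numbered 1327, and 2066 with the second tables and from 62 (without Chr12 log replicate 2) to 1805 (without euploid day 4 replicate 1) with a library left out. Those of the euploid numbered 1575, and 993 with at least 10 reads and from 633 (without euploid log replicate 2) to 1785 (without euploid day 4 replicate 1).

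Of these 18 list medians, 13 kept their sign throughout. Purine synthesis ranged over the left-out libraries from -0.049 (without Chr12 day 4 replicate 2) to 1.40 (without euploid day 4 replicate 2), the proteasome from -0.86 (without Chr12 day 4 replicate 2) to 0.21 (without euploid day 4 replicate 2), and ribosome quality control from -0.42 (without Chr12 log replicate 1) to 0.0081 (without euploid day 4 replicate 2), with 0.073 under library totals. Gluconeogenesis gave 0.046 with the replicate block by phase, 0.16 with 1 read per position, 0.29 with thinned reads, 0.050 with the second tables, 0.26 with the block and without the highest position, 0.59 with the block and the second tables, and -0.69 (without euploid day 4 replicate 1) to 2.005 (without euploid day 4 replicate 2) over the left-out libraries. Glycolysis gave 0.052 with library totals, 0.29 with 1 read per position and -1.07 (without euploid day 4 replicate 1) to 1.15 (without euploid day 4 replicate 2).

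Of the genes named, some that turned sign were near 0 in the main fit, such as RQC2 (-0.11) and HSP104 (-0.16). Others had large fitted differences there: -4.95 for FRE3, -2.88 for DPC7, -2.66 for FRE4 and -2.05 for FIT1. RQC1 gave -0.0081 without the highest position, -0.46 with 1 read per position, -0.078 with thinned reads, -0.15 with the second tables, and with the block by phase -0.011 without the highest position and -0.070 with the second tables. RQC2 gave 0.28 with library totals, 0.032 with at least 10 reads, 0.014 with 1 read per position, 0.28 with thinned reads and -0.56 (without euploid day 4 replicate 1) to 0.65 (without euploid day 4 replicate 2). HEL2 gave -0.77 with the second tables, -0.0076 and -0.72 with the block by phase and the same 2 settings, and -0.11 (without Chr12 day 4 replicate 1) to 0.72 (without Chr12 day 4 replicate 2). HSP104 gave 0.16 with the plain replicate block, 0.21 with the replicate block by phase, 0.22 with library totals, 0.20 with 1 read per position, 0.25 with the block and without the highest position, and -0.98 (without euploid day 4 replicate 1) to 1.75 (without euploid day 4 replicate 2). Left-out libraries gave -1.42 (without euploid day 4 replicate 1) to 0.99 (without euploid day 4 replicate 2) for UBP6, -7.68 (without euploid log replicate 1) to 2.83 (without euploid day 4 replicate 1) for FRE3, -3.67 (without euploid day 4 replicate 2) to 0.22 (without euploid day 4 replicate 1) for FRE4 and -7.27 (without euploid log replicate 1) to 2.07 (without Chr12 log replicate 1) for DPC7. FIT1 gave -7.85 (without Chr12 day 4 replicate 1) to 0.18 (without euploid day 4 replicate 1). The other genes described kept their direction.

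Depth limits these data: with 2 replicates per group, the euploid day 4 library of replicate 1 holds few reads for most genes, and leaving out either euploid day 4 library moved many list medians by more than 1.5 times. That library also had 2.76% of reads before the start codon and 2.91% after the stop, against at most 1.60% and 1.01% in any other. The first 20 codons held 7.35% to 8.92% of coding reads in replicate 1 and 4.46% to 5.53% in replicate 2. With the coding sequence only, 0 genes passed the FDR for the strain difference. The planned promoter motif counts were not run.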
